A study of Homo sapiens with 12 samples.

Results

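Very long protein-coding genes of HEK293T cells, an embryonic kidney line, were examined as a set in RNA-Seq libraries from 4 treatment groups. The members were chosen by annotated span and by measured values. A protein-coding gene entered where its end minus its start was at least 500 kb and its read counts summed to at least 1200 over the 12 libraries. Of the 58735 genes counted, 19951 were protein-coding, and of these 317 reached the span, 11103 reached the summed count and 135 reached both. LRBA, SCAPER, FARS2 and genes with names that start with EXOC or KIF were left out, 6 of the 135 in all, which left 129 members. The summed count ran over all groups and did not use any difference between them, and each member had at least 10 counts in each of the 12 libraries.

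RNA polymerase II moves along DNA at a limited speed, so a very long gene takes hours to transcribe, while a short gene is finished within minutes. Most of what the polymerase copies from such a gene is intron, which is spliced out, and elongation factors and topoisomerases keep the enzyme moving and relieve the twist it builds up. Genes of this kind are most used in neurons and encode many adhesion molecules, receptors and scaffolds, and several of them lie at common fragile sites, where long transcription and DNA replication meet. A library made from poly(A) RNA counts mature transcripts, both those made before a treatment and those made during it.

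The study asked whether the reagents of a chemoproteomic protocol change the transcriptome. Cells received DMSO alone, CEP (clickable electrophilic purine AHL-Pu-1, a cysteine-reactive probe) for 1 h, 4SU (4-thiouridine, a photoactivatable ribonucleoside that is taken up into new RNA) at 100 µM for 16 h, or 4SU followed by CEP, with 3 libraries in each group. The CEP dose was 25 µM in the series description and 25 mM in the sample labels. The treatment text is the same for the 4 groups: irradiation on ice with ultraviolet light came after 4SU and before the probe, so the DMSO group shares it as far as the labels state. All libraries are wild-type cells of 1 line, described as independent replicates, so the p-values measure the spread between such replicates of 1 line.

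Libraries held 16569114 to 24644734 counts on genes. CEP replicate 2 and CEP+4SU replicate 2 stood apart, with 22230 and 22627 genes with a count against 24376 to 25869 in the other 10 libraries. The 6 HEK293 markers were present in every library, summing to 141.5 to 149.4 FPKM in DMSO and 137.8 to 145.8 FPKM in the treated groups (FPKM are the authors' fragment counts scaled by exon length and library size, comparable between genes). Of the markers of other cells, TYR of melanocytes and CD3E of T cells were at 0 in all 12 libraries, while PMEL and DCT of melanocytes had 1.15 to 2.73 and 0.186 to 0.844 FPKM. The mean of DCT was 0.249 FPKM in DMSO, 0.375 in CEP, 0.466 in 4SU and 0.582 FPKM in CEP+4SU. In the same order PMEL had means of 2.06, 1.93, 2.24 and 1.64 FPKM, and MLANA 0.132, 0.0689, 0.160 and 0.130 FPKM. The 4 melanocyte markers summed to 2.06 to 2.75 FPKM in DMSO and 1.64 to 2.75 FPKM in CEP+4SU. The 4 mature neuron markers summed to 2.22 to 2.89 FPKM in DMSO and 2.002 to 2.86 FPKM in the treated groups, mostly from GAD1 and SLC17A7, which were present in every library, and the leukocyte and endothelial markers summed to at most 0.0134 and 0.129 FPKM. COL1A1 of fibroblasts was present as well, and summed with COL1A2, which was at 0 in 11 libraries, it had 4.10 to 4.22 FPKM in DMSO, 3.38 to 3.65 in CEP, 3.11 to 4.15 in 4SU and 2.89 to 3.52 FPKM in CEP+4SU. The part of these markers in the results was not tested.

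The members spanned 501.4 to 2305 kb with a median of 701.9 kb, and 22 of them reached 1000 kb. CNTNAP2, a neurexin family adhesion protein, spanned 2305 kb, PTPRD, a receptor tyrosine phosphatase, 2298 kb, and DMD, which encodes dystrophin, 2242 kb. LRP1B, a lipoprotein receptor family member, followed with 1900 kb and ROBO2, a receptor for Slit guidance cues, with 1743 kb. Exons made up 0.394% to 8.93% of the span with a median of 1.49%, and the longest intron alone took a median of 22.3% of it. Members held a median of 4 other annotated genes within their span, and 6 held none. Exons overlapped those of another gene over at least 10% of their length in 5 members, IQCJ-SCHIP1 (46.2%), KAZN (24.9%), FRMD4A (17.7%), SBF2 (16.0%) and KALRN (10.4%), whose counts are uncertain for that reason. These were named after their overlap was seen. They lay on 22 chromosomes, with 18 on chromosome 3, 12 on chromosome 1 and none on chromosomes 19 and Y.

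Levels were low for most members. The mean FPKM over the 12 libraries ran from 0.259 to 18.8 with a median of 1.80, against a median of 8.23 for the 11103 protein-coding genes with the same minimum count. It reached 5 FPKM in 15 members and 1 FPKM in 90. ADK, adenosine kinase, had the highest level with 19.1 ± 1.59 FPKM in DMSO (SD, n = 3). ROBO1, the other Slit receptor among the members, followed with 17.0 ± 0.363 FPKM, and ADGRL2, an adhesion G protein-coupled receptor of the latrophilin family, with 13.8 ± 0.0686 FPKM. GSE1, a coiled-coil protein of corepressor complexes, had 13.9 ± 0.251 FPKM and FAF1, a ubiquitin-binding adaptor, 13.0 ± 0.699 FPKM. The lowest DMSO library of ADK, at 18.0 FPKM, lay above the highest of ROBO1, at 17.3 FPKM, while ADGRL2, GSE1 and FAF1 overlapped or differed by less than 1 FPKM in their means. At the other end AKAP6, a protein kinase A anchor, had 0.258 ± 0.0149 FPKM, KSR2, a scaffold of the Raf kinase cascade, 0.252 ± 0.0114 FPKM, and KALRN, a guanine nucleotide exchange factor, 0.285 ± 0.0183 FPKM. AKAP6, KSR2 and KALRN had 1227, 1303 and 1858 counts in all, where a minimum summed count was part of the choice of members. Their exonic lengths were 19748, 18294 and 24490 bases, against a median of 11080 bases over the members.

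**Figure D1:**
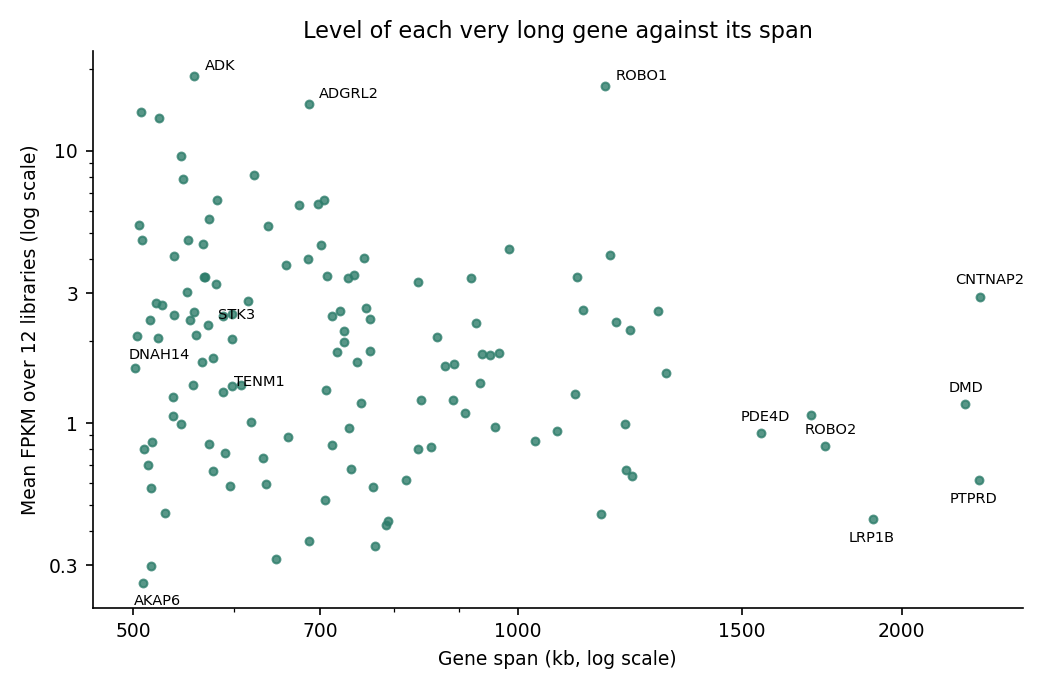
Mean FPKM over the 12 libraries of each of the 129 members (vertical, log scale) against gene span in kb (horizontal, log scale), 1 point per gene. Genes near 500 kb covered almost the whole range from 0.259 to 18.8 FPKM, and the 5 longest genes lay between 0.444 and 2.91 FPKM.

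The members nearest the 2 minimums are given for description. SPOCK3 (501.4 kb), DNAH14 (503.0 kb) and ERC1 (505.4 kb) were just inside the span minimum, and DIAPH3 (498.4 kb), CACNA2D1 (497.4 kb) and RPS6KA2 (497.1 kb) just outside. Their fitted log2 fold changes for CEP against DMSO were 0.26, 0.33 and -0.01 inside and 0.10, 0.19 and -0.11 outside. By summed count AKAP6 (1227), KSR2 (1303) and ULK4 (1324) were just inside and CCSER1 (1197), PLCL1 (1152) and RBMS3 (1148) just outside, with changes of -0.10, 0.12 and -0.15 inside and 0.31, 0.05 and -0.11 outside. Neither minimum separated genes of 1 direction from genes of the other.

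The 5 members that passed the test in some comparison, described further on, were DNAH14, STK3, ROBO2, ADK and TENM1. DNAH14 (ENSG00000185842), a heavy chain of axonemal dynein, lies at chr1:224896262-225399292 on the plus strand of GRCh38 (GENCODE 29) with 98 exon blocks. STK3 (ENSG00000104375), a kinase of the Hippo pathway, spans 571.6 kb on a minus strand with 29 exon blocks. ROBO2 (ENSG00000185008) lies at chr3:75906695-77649964 on the plus strand with 34. ADK (ENSG00000156110) lies at chr10:74151185-74709303 on the plus strand with 14. TENM1 (ENSG00000009694), a teneurin, a large cell surface protein of synapse and axon guidance, lies at chrX:124375903-124963817 on the minus strand with 32.

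The span of such a gene runs from its outermost annotated start, and the starts that RefSeq lists can lie far inside it. The 250 bases before the RefSeq start nearest to the outermost GENCODE start (RefSeq, GRCh38.p14) are shown for 4 of these 5 members for that reason, 5′ to 3′ on the gene's strand, with every CG pair in capitals.
DNAH14, chr1:224929404-224929653, plus strand: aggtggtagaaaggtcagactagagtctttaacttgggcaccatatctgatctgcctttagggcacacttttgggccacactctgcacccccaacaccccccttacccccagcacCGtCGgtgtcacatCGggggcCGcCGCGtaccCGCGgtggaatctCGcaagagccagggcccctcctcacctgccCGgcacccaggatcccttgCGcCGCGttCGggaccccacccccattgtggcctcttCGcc
ROBO2, chr3:76310630-76310879, plus strand: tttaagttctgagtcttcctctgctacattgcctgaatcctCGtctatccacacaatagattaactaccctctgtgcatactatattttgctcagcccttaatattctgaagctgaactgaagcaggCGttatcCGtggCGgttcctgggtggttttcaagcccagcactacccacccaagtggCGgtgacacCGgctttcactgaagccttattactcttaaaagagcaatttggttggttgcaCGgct
ADK, chr10:74150971-74151220, plus strand: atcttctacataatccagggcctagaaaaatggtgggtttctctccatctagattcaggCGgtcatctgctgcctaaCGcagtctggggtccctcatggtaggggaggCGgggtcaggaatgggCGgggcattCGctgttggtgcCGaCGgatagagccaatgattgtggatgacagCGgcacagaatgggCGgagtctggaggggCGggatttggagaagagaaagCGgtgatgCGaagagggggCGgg
TENM1, chrX:124963818-124964067, minus strand: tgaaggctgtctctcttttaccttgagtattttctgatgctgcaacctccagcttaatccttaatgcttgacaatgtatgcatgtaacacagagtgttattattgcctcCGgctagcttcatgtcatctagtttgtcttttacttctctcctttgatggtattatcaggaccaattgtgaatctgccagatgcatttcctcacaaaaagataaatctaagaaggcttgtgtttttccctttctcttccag
In ADK it lay 0.036 kb inside the outermost GENCODE start and in TENM1 at it, and a further RefSeq start of TENM1 lies outside the GENCODE gene. In DNAH14 it lay 33.4 kb inside the gene and in ROBO2 404 kb inside, so the RefSeq transcripts of both are shorter than the span by which the genes were chosen. Measured from its RefSeq start to the GENCODE end, DNAH14 (503.0 kb by GENCODE) would fall under the minimum of 500 kb. The window of DNAH14 held 15 CG pairs, that of ADK 13, that of ROBO2 7 and that of TENM1 1. RefSeq windows, of 300 bases with 50 after the start, were matched for 112 of the 129 members, 1 window each, and their median was 24.5 CG pairs against 14 over all 34943 windows. The letters TATAAA, searched on both strands, were in 6.25% of the members' windows and in 11.6% of all windows.

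With CEP alone the median of the very long genes lay slightly above DMSO, and no single member passed the test. Protein-coding genes of 50 to 100, 100 to 200 and 200 to 500 kb had medians of 0.10, 0.12 and 0.12, as described further on. The median fitted log2 fold change of the 129 members was 0.12, with quartiles at 0.01 and 0.21, and 98 of them were fitted higher, against a median of -0.0047 over all 17729 genes tested. None was called by edgeR's quasi-likelihood test at a Benjamini-Hochberg adjusted p of 0.05, where 0.0564% of all genes were called. The smallest adjusted p among members was 0.173. At an unadjusted edgeR p of 0.05 there were 25 members (19.4%), 24 of them higher, close to the 18.6% of all genes. DESeq2, which gave an adjusted p for 80 of the members, called 4 of them (5.0%; 2.63% of all genes with one), all higher. All 3 CEP libraries lay above all 3 DMSO libraries in 24 members (18.6%; 13.5% of all genes), and all lay below in 4 members (3.1%; 10.1% of all genes). In bulk RNA, a change in the number of cells that use a gene and a change in RNA per cell cannot be told apart.

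The shift was uneven between CEP libraries. The median difference of the members from the DMSO mean was 0.02 in CEP replicate 1, 0.22 in replicate 2 and 0.10 in replicate 3, on the log2 scale. In DMSO it was 0.0045, 0.017 and -0.013, so replicate 1 of CEP lay within the DMSO range while replicates 2 and 3 lay above it. CEP replicate 2, which had the fewest detected genes, carried the largest shift. Without it the members' median for CEP was 0.066. The share of all counts that fell on members was 0.343% ± 0.00715 in DMSO, 0.372% ± 0.0277 in CEP, 0.348% ± 0.00768 in 4SU and 0.360% ± 0.0104 in CEP+4SU (SD, n = 3 each), and the range in CEP, 0.349% to 0.403%, overlapped that in DMSO, 0.338% to 0.351%. The spread between replicates of a member, as a coefficient of variation, had a median of 6.76% in DMSO, 10.7% in CEP, 8.0% in 4SU and 8.85% in CEP+4SU.

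Protein-coding genes with the same minimum count were set in classes of span for comparison. For CEP against DMSO the median log2 fold change was -0.16 in 1888 genes under 10 kb and -0.0035 in 4821 genes of 10 to 50 kb. It was 0.10 in 2074 genes of 50 to 100 kb, 0.12 in 1435 genes of 100 to 200 kb and 0.12 in 750 genes of 200 to 500 kb. The members, at 0.12, were level with these, so past 100 kb the medians no longer rose with span. For 4SU the medians of the same classes were -0.09, -0.02, 0.0056, 0.0056 and -0.01, and the members were at -0.03. For CEP+4SU they were -0.17, -0.0088, 0.08, 0.09 and 0.06, and the members were at 0.03. Among the members, the 22 with a span of at least 1000 kb had medians of 0.12 for CEP, -0.09 for 4SU and 0.05 for CEP+4SU, and the other 107 had 0.11, -0.02 and 0.03.

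Span and base composition moved together across these classes. The median GC content of exons was 56.4% under 10 kb, 49.9% at 10 to 50 kb, 45.4% at 50 to 100 kb, 45.2% at 100 to 200 kb, 45.4% at 200 to 500 kb and 45.0% in the members, while the median exonic length rose from 2826 to 11080 bases. Among the 129 members the CEP change went with GC content (Spearman correlation -0.58), less with exonic length (0.21) and hardly with span (-0.04) or the longest intron (-0.05). These are correlations over genes that share the same 6 libraries and are given without a p. The 65 members at or below the median GC content of 45.0% had a median CEP change of 0.19 with 59 fitted higher, and the 64 above it had 0.04 with 39 fitted higher. With the GC trend of each library removed the members' median for CEP was 0.03, and with the trend on exonic length removed it was 0.0078. For 4SU the correlation was -0.28 with GC content and 0.37 with exonic length, and for CEP+4SU it was -0.33 and 0.32.

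Single members moved by more than the group with CEP, but none passed edgeR's test, and the 3 largest fitted rises and the 3 largest fitted falls are given here. PDE4D, a phosphodiesterase that breaks down cAMP, had 13.99, 13.2 and 13.4 CPM (counts scaled to the normalized library size) in DMSO and 17.2, 21.6 and 18.6 CPM in CEP. The groups did not overlap, and its log2 fold change of 0.50 ± 0.12 (SE) had an adjusted p of 0.173. RASGEF1B, an exchange factor for Ras family GTPases, had 8.56 ± 0.888 CPM in DMSO and 12.3 ± 0.486 CPM in CEP, a log2 fold change of 0.52 (adjusted p = 0.173). SEMA6D, a transmembrane semaphorin, had 5.43 ± 0.60 CPM in DMSO and 8.30 ± 2.25 CPM in CEP, a log2 fold change of 0.61 (adjusted p = 0.187). It was at 10.9 CPM in CEP replicate 2 and at 7.03 and 6.97 CPM in the other 2 CEP libraries. GALNTL6, of the family that starts O-linked glycans, had 5.85, 7.29 and 6.68 CPM in DMSO and 4.47, 4.95 and 5.08 CPM in CEP. All 3 CEP libraries lay below all DMSO libraries, with a log2 fold change of -0.45 (adjusted p = 0.194). TRAPPC9, a subunit of a membrane tethering complex, and GMDS, which makes the precursor of GDP-fucose, had log2 fold changes of -0.22 and -0.20 (adjusted p = 0.390 and 0.334). Without CEP replicate 1 edgeR called 10 members (7.75%; 6.61% of all genes), all higher, among them PDE4D, STK3, DNAH14 and ROBO2.

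4SU alone moved the members little. Their median log2 fold change was -0.03 against -0.0073 over all genes, with 53 of 129 fitted higher. When libraries were scaled by size alone the members' median was 0.03 against 0.048 over all genes, so it lay below that of all genes in both fits. No member was called, where 0.00564% of all genes were, with a smallest adjusted p of 0.626, and DESeq2 called none of the 14 members for which it gave an adjusted p. At an unadjusted edgeR p of 0.05 there were 15 members (11.6%; 6.5% of all genes), 6 higher and 9 lower. All 3 4SU libraries lay above DMSO in 13 members (10.1%; 7.58% of all genes) and below it in 16 (12.4%; 10.3% of all genes). FAT3, an atypical cadherin, had 16.6 ± 1.49 CPM in DMSO and 21.0 ± 2.12 CPM in 4SU, a log2 fold change of 0.34 (adjusted p = 0.684). KALRN and DNAH14 had log2 fold changes of 0.32 and 0.31 (adjusted p = 0.790 and 0.626). SPOCK3, a secreted proteoglycan, had 7.65 ± 0.266 CPM in DMSO and 5.86 ± 0.676 CPM in 4SU, a log2 fold change of -0.38 (adjusted p = 0.790). ULK4, a pseudokinase of the autophagy kinase family, and GMDS had -0.35 and -0.33 (adjusted p = 0.790 and 0.645).

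With CEP and 4SU together 3 members were called higher, and the set as a whole stayed near its DMSO level. The median log2 fold change was 0.03 with 74 of 129 fitted higher, and it was -0.06 with the GC trend removed. Without the 2 libraries that stood apart it was 2.46e-05 and no member was called. DNAH14, STK3 and ROBO2 were called, 3 of 129 (2.33%) where 1.64% of all genes were called and 0.643% were called higher, and none was called lower. In the shorter classes of span, with the same minimum count, 0.667% (200 to 500 kb) to 3.97% (under 10 kb) were called in either direction. The members' share lay within that range. At an unadjusted edgeR p of 0.05 there were 21 members (16.3%; 21.4% of all genes), 13 higher and 8 lower. DESeq2 called 6 of 113 members with an adjusted p (5.31%; 10.6% of all genes with one), 4 higher, with the same 3 among them, and 2 lower, DENND1A and GMDS. All 3 CEP+4SU libraries lay above DMSO in 21 members (16.3%; 14.1% of all genes) and below it in 11 (8.53%; 14.6% of all genes).

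ROBO2 had 12.3, 10.4 and 10.2 CPM in DMSO, 13.8, 14.96 and 15.7 CPM in CEP, 12.8, 14.3 and 13.0 CPM in 4SU and 15.4, 17.0 and 15.7 CPM in CEP+4SU. Each of the 9 treated libraries lay above the 3 DMSO libraries. Its log2 fold change with both compounds was 0.54 ± 0.12 (SE; adjusted p = 0.037), a rise of 45.8%, and that with CEP alone was 0.43 (adjusted p = 0.173). DNAH14 had 34.3, 33.9 and 35.2 CPM in DMSO, 39.7, 47.8 and 42.6 CPM in CEP, 41.7, 42.5 and 43.7 CPM in 4SU and 41.1, 48.0 and 48.0 CPM in CEP+4SU. The DMSO libraries were tight and again all 9 treated libraries lay above them. Its log2 fold change with both was 0.41 ± 0.09 (SE; adjusted p = 0.041), a rise of 32.6%, with 0.33 for CEP and 0.31 for 4SU, neither called. STK3 had 24.9, 22.5 and 21.8 CPM in DMSO, 27.3, 38.9 and 31.5 CPM in CEP, 25.2, 28.95 and 29.99 CPM in 4SU and 30.4, 36.9 and 31.0 CPM in CEP+4SU. The highest value of CEP and of CEP+4SU was in replicate 2, and every treated library lay above DMSO. Its log2 fold change with both was 0.51 ± 0.13 (SE; adjusted p = 0.049), a rise of 42.2%, and it was 0.50 with CEP alone (adjusted p = 0.173).

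These 3 calls were close to the threshold. All of them were lost without any 1 of the 3 DMSO libraries, without 4SU replicate 2 or 3 and without CEP+4SU replicate 2 or 3, STK3 also without CEP replicate 3, and STK3 and DNAH14 without 4SU replicate 1. Over these fits the adjusted p reached 0.171 for DNAH14, 0.232 for STK3 and 0.168 for ROBO2. With the GC trend removed the log2 fold changes were 0.19 for DNAH14, 0.30 for STK3 and 0.40 for ROBO2, none of them called. Their exons have 38.1%, 39.0% and 42.4% GC, all below the members' median.

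Among members that did not pass with both compounds, KSR2 had 4.64 ± 0.207 CPM in DMSO and 6.79 ± 1.36 CPM in CEP+4SU, a log2 fold change of 0.55 (adjusted p = 0.1004). Its value in CEP+4SU replicate 2 was 8.34 CPM, against 5.80 and 6.23 CPM in the other 2. WDPCP, a cilium and planar polarity effector, had 6.85 ± 0.336 CPM in DMSO and 5.12 ± 0.434 CPM in CEP+4SU, a log2 fold change of -0.42 (adjusted p = 0.184). The 9 genes that lie within its span took 58555 counts against its own 1485, and 1.62% of its exonic bases overlap theirs or those of other genes. DENND1A, an exchange factor for Rab35 in clathrin-mediated transport, had 34.6 ± 1.83 CPM in DMSO and 26.3 ± 5.39 CPM in CEP+4SU, a log2 fold change of -0.40 (adjusted p = 0.096). TENM4, another teneurin, had a log2 fold change of -0.36 (adjusted p = 0.343) and 10.99 CPM in DMSO replicate 2, against 5.50 and 6.64 CPM in the other 2. PDE4D, the member with the smallest unadjusted p for CEP alone, had 13.5, 14.3 and 15.1 CPM in CEP+4SU, 1 of them within and 2 above its DMSO range, and a log2 fold change of 0.08 (adjusted p = 0.730).

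Averaged over the libraries without and with 4SU, CEP gave the members a median log2 fold change of 0.09 with 100 of 129 fitted higher. None was called, where 0.276% of all genes were, and the smallest adjusted p was 0.064. At an unadjusted edgeR p of 0.05 there were 26 members (20.2%; 24.3% of all genes), 24 of them higher. DESeq2 called 12 of 80 members with an adjusted p, all higher, and this share (15%) was close to that of all genes with one (15.6%). RASGEF1B (0.39, adjusted p = 0.072), STK3 (0.36, adjusted p = 0.065) and SEMA6D (0.36, adjusted p = 0.143) had the largest fitted rises on the log2 scale. GALNTL6 (-0.33, adjusted p = 0.102), WDPCP (-0.27, adjusted p = 0.201) and GRID1, a delta family glutamate receptor (-0.21, adjusted p = 0.297), had the largest fitted falls. Without CEP replicate 1 edgeR called 15 members (11.6%; 11.8% of all genes), and without CEP+4SU replicate 1 it called 8 (6.2%; 6.16% of all genes), all higher, so both shares were near those of all genes.

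Averaged over the libraries without and with CEP, 2 members were called lower with 4SU. The median log2 fold change was -0.05, with 41 of 129 fitted higher, against a median of -0.0019 over all genes. ADK and TENM1 were called lower, 2 of 129 (1.55%) where 0.558% of all genes were called and 0.384% were called lower. At an unadjusted edgeR p of 0.05 there were 22 members (17.1%; 12.6% of all genes), 5 higher and 17 lower, and DESeq2 called the same 2 (1.55%; 2.6% of all genes with an adjusted p).

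ADK had 59.1, 67.2 and 58.0 CPM in DMSO and 69.6, 70.0 and 75.4 CPM in CEP, both without 4SU. With 4SU it had 50.5, 52.3 and 54.9 CPM, and with both compounds 57.7, 57.9 and 52.7 CPM. In CPM the 6 libraries with 4SU lay narrowly below the 6 without it, with 57.9 in CEP+4SU replicate 2 against 57.98 in DMSO replicate 3. In FPKM they overlapped, with 18.02 in CEP+4SU replicate 2 against 17.98 in DMSO replicate 3. Its averaged log2 fold change was -0.29 ± 0.06 (SE; adjusted p = 0.034), a fall to a level 18.2% lower. TENM1 had 15.1, 16.6 and 21.0 CPM in DMSO and 20.6, 23.5 and 20.6 CPM in CEP, against 13.1, 15.2 and 14.9 CPM in 4SU and 13.2, 13.6 and 15.3 CPM in CEP+4SU. DMSO replicate 1 lay within the range of the libraries with 4SU. Its averaged log2 fold change was -0.45 ± 0.09 (SE; adjusted p = 0.034).

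Each of these 2 calls held in 3 of the 12 fits without 1 library, with adjusted p up to 0.133 for ADK and 0.131 for TENM1. Both held without CEP replicate 1 and without CEP+4SU replicate 2, ADK held without CEP replicate 2 and TENM1 without CEP replicate 3, and both were lost without any other library. With the GC trend removed both were still called, at -0.31 and -0.47, among 9 members called lower and none higher (6.98%). In that fit 3.96% of all genes were called in either direction. In the shorter classes of span, with the same minimum count, the share was 5.02% (100 to 200 kb) to 6.15% (under 10 kb). SPOCK3 (-0.47, adjusted p = 0.155) and MDGA2, a membrane-anchored partner of neuroligins (-0.39, adjusted p = 0.179), had the other largest fitted falls, and KSR2 (0.34, adjusted p = 0.273), FAT3 (0.27, adjusted p = 0.143) and ROBO2 (0.20, adjusted p = 0.359) the largest fitted rises.

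The interaction asks whether the CEP effect differed in the presence of 4SU. No member was called, where 0.0% of all genes were, and DESeq2 called none. At an unadjusted edgeR p of 0.05 there were 3 members (2.33%; 2.63% of all genes), 1 with a larger and 2 with a smaller CEP effect under 4SU. The median interaction of the members was -0.06 with 47 of 129 above 0, and it was -0.13 with 13 of 65 above 0 in those at or below the median GC content and 0.02 with 34 of 64 above 0 in the rest. PDE4D had -0.40 ± 0.17 (SE; adjusted p = 1.00) and MDGA2 -0.63 ± 0.25 (SE; adjusted p = 1.00) on the log2 scale. MDGA2 had 5.85, 6.50 and 6.30 CPM in DMSO, 7.29, 7.66 and 9.11 CPM in CEP, 6.25, 6.25 and 5.27 CPM in 4SU and 5.37, 3.88 and 5.58 CPM in CEP+4SU.

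By role, the members held 30 adhesion and surface receptor genes, 22 of cytoskeleton, junctions and scaffolds, 21 signalling enzymes and GTPase regulators, 21 of membrane trafficking, channels and ubiquitin, 20 of transcription, chromatin and RNA binding, 14 metabolic and modifying enzymes, and TMEM117, to which no role was assigned. By edgeR none of the groups had a member called with CEP or 4SU alone, where 0.0564% and 0.00564% of all genes were. With CEP DESeq2 called PDE4D and STK3 of the signalling genes, DIAPH2 of the cytoskeletal genes and MECOM of the transcription genes. It called 2.63% of all genes with an adjusted p there. With CEP, 24 of 30 adhesion and receptor genes were fitted higher with a median of 0.13, from -0.16 to 0.61 in SEMA6D. With both compounds 13 of 30 were, with a median of -0.01, and ROBO2 alone passed. With 4SU averaged over CEP 7 of 30 were fitted higher with a median of -0.09, and TENM1 passed.

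Of the 22 cytoskeletal and scaffold genes 16 were fitted higher with CEP, with a median of 0.10, and 14 with both compounds, where DNAH14 passed. Of the 21 signalling genes 18 were fitted higher with CEP, the highest share of any group, with a median of 0.14 and PDE4D and RASGEF1B at the top, and 16 with both compounds, where STK3 passed. In the 21 trafficking, channel and ubiquitin genes 15 were fitted higher with CEP and 15 with both, with medians of 0.11 and 0.05. In the 20 transcription, chromatin and RNA-binding genes 16 were fitted higher with CEP, with a median of 0.12, and all 20 were with CEP averaged over 4SU, from 0.02 to 0.32. None of the 20 was called by edgeR there, where 0.276% of all genes were. DESeq2 called FOXP1 and MECOM of the 12 with an adjusted p, where it called 15.6% of all genes with one.

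The 14 metabolic and modifying enzymes had the lowest medians of the 6 groups in all 3 comparisons with DMSO, in a description without a test. With CEP 8 of them were fitted higher, with a median of 0.03. With 4SU 1 of 14 was fitted higher, with a median of -0.15, and with both compounds 4 were, with a median of -0.15. In 4SU averaged over CEP 3 were fitted higher, with a median of -0.15, and ADK was the member that passed. GMDS had 41.0 ± 3.59 CPM in DMSO, 35.8 ± 2.15 in CEP, 32.5 ± 4.44 in 4SU and 32.04 ± 1.75 CPM in CEP+4SU, and each treated library lay below the 3 DMSO libraries.

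The members included 12 genes of known common fragile sites, among them AUTS2, CNTNAP2, DMD, ERBB4, LRP1B, NBEA, PARD3B, PDE4D, PTPRG, RORA and WWOX. None was called by edgeR in any of the 6 comparisons. DESeq2 called PDE4D with CEP and with CEP averaged over 4SU, where it called 2.63% and 15.6% of all genes with an adjusted p. With CEP 10 of 12 were fitted higher, with a median of 0.14 and a range from -0.06 in WWOX, an oxidoreductase, to 0.50 in PDE4D. With 4SU 6 were fitted higher, with a median of -0.0038, and with both 7 were, with a median of 0.04. The 3 longest genes of the list were fitted higher with CEP. CNTNAP2 had 45.5 ± 5.15 CPM in DMSO and 55.2 ± 3.64 CPM in CEP (log2 fold change 0.28, adjusted p = 0.196), and DMD and LRP1B had log2 fold changes of 0.28 and 0.19 (adjusted p = 0.294 and 0.556). PTPRD, which is as long but not on the list, had 0.32 (adjusted p = 0.333). AUTS2, a regulator of neuronal transcription, had 60.5 ± 3.64 CPM in DMSO and 51.8 ± 3.77 CPM in 4SU, with a log2 fold change of -0.22 (adjusted p = 0.762).

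Of the genes that act on elongation, 33 of 34 listed elongation factors and all 11 topoisomerases and RNA factors linked to long genes were tested. By edgeR 1 of these 44 passed, in 1 comparison, CEP+4SU against DMSO, where 1.64% of all genes were called. With CEP alone DESeq2 called 1 of the 33 elongation factors and none of the other 11 genes (2.63% of all genes with an adjusted p). With both compounds it called 3 of 33 and 1 of 11, where 10.6% of all genes with one were called. With CEP averaged over 4SU it called 7 of 33 and 4 of 11, where 15.6% were. CDK9, the kinase of the elongation factor P-TEFb that releases paused polymerase, had 59.9 ± 2.57 CPM in DMSO, 53.9 ± 2.0 in CEP, 55.3 ± 2.38 in 4SU and 46.5 ± 5.21 CPM in CEP+4SU. Its log2 fold change with both compounds was -0.37 ± 0.09 (SE; adjusted p = 0.048), and edgeR called no factor higher. The CDK9 call was close to the threshold. Over all genes the calls of this comparison fell from 290 to between 14 and 21 when any 1 DMSO library was left out. The adjusted p of CDK9 in those fits is not given here. The median of the elongation factors was 0.02 with CEP, -0.04 with 4SU and 0.02 with both, with 20, 10 and 18 of 33 fitted higher. That of the topoisomerases and RNA factors was -0.02, -0.08 and -0.01, with 5, 1 and 4 of 11 fitted higher. Whether CDK9 and the members that rose are linked was not tested.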

How the data were processed

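Poly(A) RNA of HEK293T cells was sequenced in 12 libraries, 3 for each of the 4 treatment labels. Reads were aligned to GRCh38 with HISAT2 2.0.5 and counted on genes with featureCounts 1.5.0-p3, per the submitters' processing notes, and the authors deposited whole, unscaled counts. They also deposited FPKM, linear values that the authors derived from those counts. The strand setting of the counting is not given in the sources used here, so reads of an antisense gene cannot be told apart. Total counts ranged from 16569114 to 24644734, and their number limits the precision of low genes. All 58735 gene positions matched GENCODE 29. Span and exonic length were taken from the annotation deposited with the counts. Exonic GC content was computed over all GENCODE 29 transcripts of a gene together, so an exon shared by several transcripts counts more than once.

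Fits were made in edgeR 4.0.16, with DESeq2 1.42.0 and limma 3.58.1 as alternatives, under R 4.3.3. DESeq2 leaves genes under its own filter on mean counts without an adjusted p, and its shares are over genes that have one. Genes passed filterByExpr (minimum count 10, total 15), which left 17729 with all 129 members, and counts were TMM normalized (factors 0.972 to 1.03). The 12 libraries were fitted in 1 quasi-likelihood model without a replicate term (prior count 0.125, common biological coefficient of variation 0.114), and p-values were Benjamini-Hochberg adjusted over all genes tested at 0.05. The contrasts were each treatment against DMSO, CEP averaged over 4SU, 4SU averaged over CEP, and their interaction. Log2 differences per library used log2 CPM with prior count 2. Trends on GC content or exonic length were removed with a loess offset per library.

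The members, the gene lists and the tests were chosen with earlier results of these data known, and the roles of 33 members were assigned after the files were read. The text names members past the threshold, the 3 largest fitted rises and falls of each comparison with DMSO and each averaged comparison, the 5 highest and 3 lowest by FPKM, the 5 longest, the genes nearest each minimum, the fragile site genes, and elongation genes past the threshold. A gene of the fragile site list is not reported here by name but is included in counts. Alternatives were other normalizations, count filters, DESeq2, limma on log2(FPKM + 1) and log2(FPKM + 0.1), a replicate block, fits without 1 library, only the libraries compared, removed trends and other minimums. Fits without the 2 libraries with fewest detected genes were added after the data were seen.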

Additional observations from a re-analysis of the deposited data

Results flagged for a closer look

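In 2 members the 3 treated libraries lay on opposite sides of the mean of their untreated group in 2 settings of the same contrast. For MDGA2 the CEP effect was 0.36 in log2 CPM without 4SU and -0.27 with it, where all 3 CEP libraries lay above the DMSO mean and all 3 CEP+4SU libraries below the 4SU mean, although CEP+4SU replicate 3 (5.58 CPM) lay above 4SU replicate 3 (5.27 CPM). The interaction in the edgeR fit was -0.63 (SE 0.253, adjusted p = 1.00), so the difference did not pass the test. For DMD, whose 4SU libraries all lay within the DMSO range, the 4SU effect was 0.04 in log2 CPM without CEP and -0.22 with it, with an interaction of -0.25 (SE 0.204, adjusted p = 1.00), which did not pass either. Its 3 CEP libraries had 20.6, 29.9 and 25.6 CPM, a wider spread than the 21.1, 21.9 and 21.2 CPM of 4SU.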

How the results depend on the processing

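The number of members called was 0 for CEP, 0 for 4SU, 3 for CEP+4SU, 0 for CEP averaged over 4SU, 2 for 4SU averaged over CEP and 0 for the interaction. The counts for 4SU and the interaction were 0 under each alternative run. DESeq2 called 4 for CEP, 6 for CEP+4SU and 12 for CEP averaged, which is 5.0%, 5.31% and 15% of the members with an adjusted p against 2.63%, 10.6% and 15.6% of all genes. Without a filter on low counts edgeR called 3, 5 and 8 (2.33%, 3.88% and 6.2%, against 1.86%, 3.46% and 4.06% of all genes). Limma on log2(FPKM + 1) or on log2(FPKM + 0.1) called 0 for CEP+4SU and 0 for 4SU averaged. With the trend on exonic length or GC content removed 0 were called for CEP+4SU, and with that on GC content removed 9 for 4SU averaged (6.98%, against 3.96% of all genes). Upper-quartile normalization left 1 and scaling by library size alone 0 for 4SU averaged. Without both libraries with fewest detected genes 0 were called for CEP+4SU. At an adjusted p of 0.5, which the study prints, 52 passed for CEP, 46 for CEP+4SU, 67 for CEP averaged and 33 for 4SU averaged (40.3%, 35.7%, 51.9% and 25.6%, against 44.4%, 47.0%, 52.3% and 20.5% of all genes). Leaving out 1 library gave 0 to 10 for CEP, 0 to 4 for CEP+4SU, 0 to 15 for CEP averaged and 0 to 2 for 4SU averaged. The largest of these counts were 7.75%, 3.1%, 11.6% and 1.55% of the members. In the same fits 6.61%, 4.42%, 11.8% and 0.452% or 0.687% of all genes were called. The cause of these differences was not tested. With a replicate block the counts were 7 for CEP, 6 for CEP+4SU, 13 for CEP averaged and 3 for 4SU averaged (5.43%, 4.65%, 10.1% and 2.33%, against 4.4%, 9.4%, 12.8% and 1.9% of all genes), and the calls over all genes for CEP rose from 10 to 780. Deviations of same-numbered libraries correlated at -0.047 to 0.142. Of the 12 libraries 7 correlated best with their own number, where each could match any of 3 numbers. These values do not settle whether the replicate numbers pair the libraries. The members' median log2 fold change kept its sign except in CEP+4SU and 4SU. In CEP+4SU it was -0.032 with the exonic length trend removed, -0.058 with the GC trend removed and -0.0070 over the 15 members with the most counts. In 4SU it was 0.026 with library size alone, where the median of all genes was 0.048. With the same trends removed the members' median was 0.0078 and 0.032 for CEP and 0.0196 and 0.021 for CEP averaged. For CEP+4SU it was 0.061 without CEP+4SU replicate 1 and 2.46e-05 without both libraries with fewest detected genes, and fits without 1 library gave 0.066 to 0.158 for CEP. Changes of the size seen here, mostly under 0.2 on the log2 scale against a median SE of 0.129, were not detectable one by one at this depth and replication.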
